A study of Mus musculus with 20 samples.

Results

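The 38 genes described here encode proteins of the cell cycle and of cell proliferation, among them Mki67, Top2a, 6 cyclins, Cdk1, 6 subunits of the replicative helicase and the kinases of mitosis. They were listed by gene name, with no threshold on a measured value, and earlier results of these data were known when the list was made. Of the 38 genes, 37 had a probe that could be tested, among 25618 gene names tested in all. The remaining gene is Ccne2, which encodes a cyclin of S-phase entry. Its only probe was well above background on 1 array, with a median signal between 31 and 45.5 over the 20 arrays, so it carries no comparison.

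Transcript levels came from epididymal visceral fat of 20 male C57bl/6J mice of the third generation (F3), each on an Agilent array of its own with 1 colour. The Ref group (n = 6, diet STD, control fatty acid) came from a lineage given high-oleic sunflower oil and was kept on a low-fat reference diet. The HFoleic group (n = 6, diet HFD, control fatty acid) came from the same lineage and received a high-fat, high-sucrose diet, which serves as the obesogenic challenge. The HFepa group (n = 8, diet HFD, n-3PUFA) received that challenge too, but its lineage had been given fish oil rich in eicosapentaenoic acid (EPA), an omega 3 fatty acid. All mice were sampled at the end of the same feeding period, and their age and litters are not given in the sources used here. Mice are called by group and replicate number, such as Ref 7. The spot signal of an array had a median between 83 and 103 in Ref, 96 and 113 in HFoleic, and 88 and 114 in HFepa, in arbitrary units, and no spot was saturated. Values below are log2 intensities after quantile normalisation between arrays, and a difference between groups is a log2 fold change with its standard error (SE). A gene was read at its brightest tested probe and called at an adjusted p under 0.05, with adjustment over all 39390 tested probes. Positions are those of the probes on genome build mm9, and whether a probe lies in a coding exon or an untranslated region is not given in the sources used here.

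Cells that divide pass through an ordered programme. Cyclins switch on cyclin-dependent kinases, the MCM2 to MCM7 helicase is loaded on DNA and opens it for replication, and enzymes of nucleotide synthesis supply the building blocks. Aurora and Polo-like kinases then drive mitosis, a checkpoint holds the cell until every chromosome is attached to the spindle, and the anaphase-promoting complex ends mitosis by marking cyclin B for destruction. Mature adipocytes do not divide. In adipose tissue, dividing cells are found among precursors of adipocytes, endothelial cells and immune cells, and macrophages are known to divide locally in the fat of obese mice. The arrays measure the whole tissue, so a larger number of dividing cells and more transcript in each of them cannot be told apart.

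The first comparison asked how the obesogenic diet acted within the control lineage. In HFoleic vs. Ref, 32 of the 37 genes rose, while 15.2% of all genes tested were called higher. Mcm7, which encodes a helicase subunit, was the only one of the 37 that fell, and 16.7% of all genes were called lower. Ccnd1, Cdc6, Mcm3 and Kif23 were not called. Mcm3 was called when HFoleic 1 or HFepa 1 was left out, and Kif23 when Ref 2, 3, 5 or 6 or HFepa 3 was, since another of its probes was then the brightest and its value rose from 0.10 to as much as 0.75. The median log2 fold change was 1.21 over the 37 genes and -0.04 over all genes. For 15 of the 37, every HFoleic mouse lay above every Ref mouse, which held for 6.92% of all genes in this direction. The number of genes called was 33 or 34 whichever of the 20 arrays was left out.

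In HFepa vs. Ref, which adds the omega 3 lineage to the diet, Tyms rose and Mcm7 fell. These 2 genes stand against 1.03% of all genes called higher and 1.42% called lower. The median log2 fold change of the 37 genes was 0.58, against -0.02 over all genes, and 26 of them were higher at an unadjusted p under 0.05, which 10.0% of all genes were. Each HFepa mouse exceeded each Ref mouse for Tyms and Mcm2 only, 2 of 37 genes, and this held for 0.371% of all genes. The number of genes called at an adjusted p under 0.05 depended on single mice. Without HFepa 3, 10 of the 37 genes were called higher and 1 lower, beside 3.41% and 3.62% of all genes. Without Ref 7, 9 were called higher and 1 lower, beside 2.42% and 2.29% of all genes. Without Ref 3, 4, 5 or 6, or without HFepa 1, 5, 6 or 7, only 1 of the 37 was called.

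The third comparison asked whether the omega 3 lineage differed from the control lineage under the same diet. In HFepa vs. HFoleic, none of the 37 genes was called in limma's fit to all arrays, and 0% of all genes were. All of these genes but Ccnd1 and Mcm7 had a lower mean in HFepa, with a median log2 fold change of -0.57 against 0.01 over all genes. At an unadjusted p under 0.05, 32 of the 37 were lower, as were 10.0% of all genes. No gene of the 37 had all HFepa mice below all HFoleic mice, which 0.203% of all genes had. The absence of calls also rested on single mice, for these genes and for the whole array. When HFepa 1 was left out, 21 of the 37 genes were called lower, beside 4.61% of all genes, and when HFoleic 1 was left out 11 were, beside 1.92%. With arrays weighted by their fit to the group means, 30 were called lower, beside 6.69% of all genes, and with the slide as a block 5 were, beside 1.48%. All 3 comparisons share groups and are therefore not independent of each other.

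**Figure D1:**
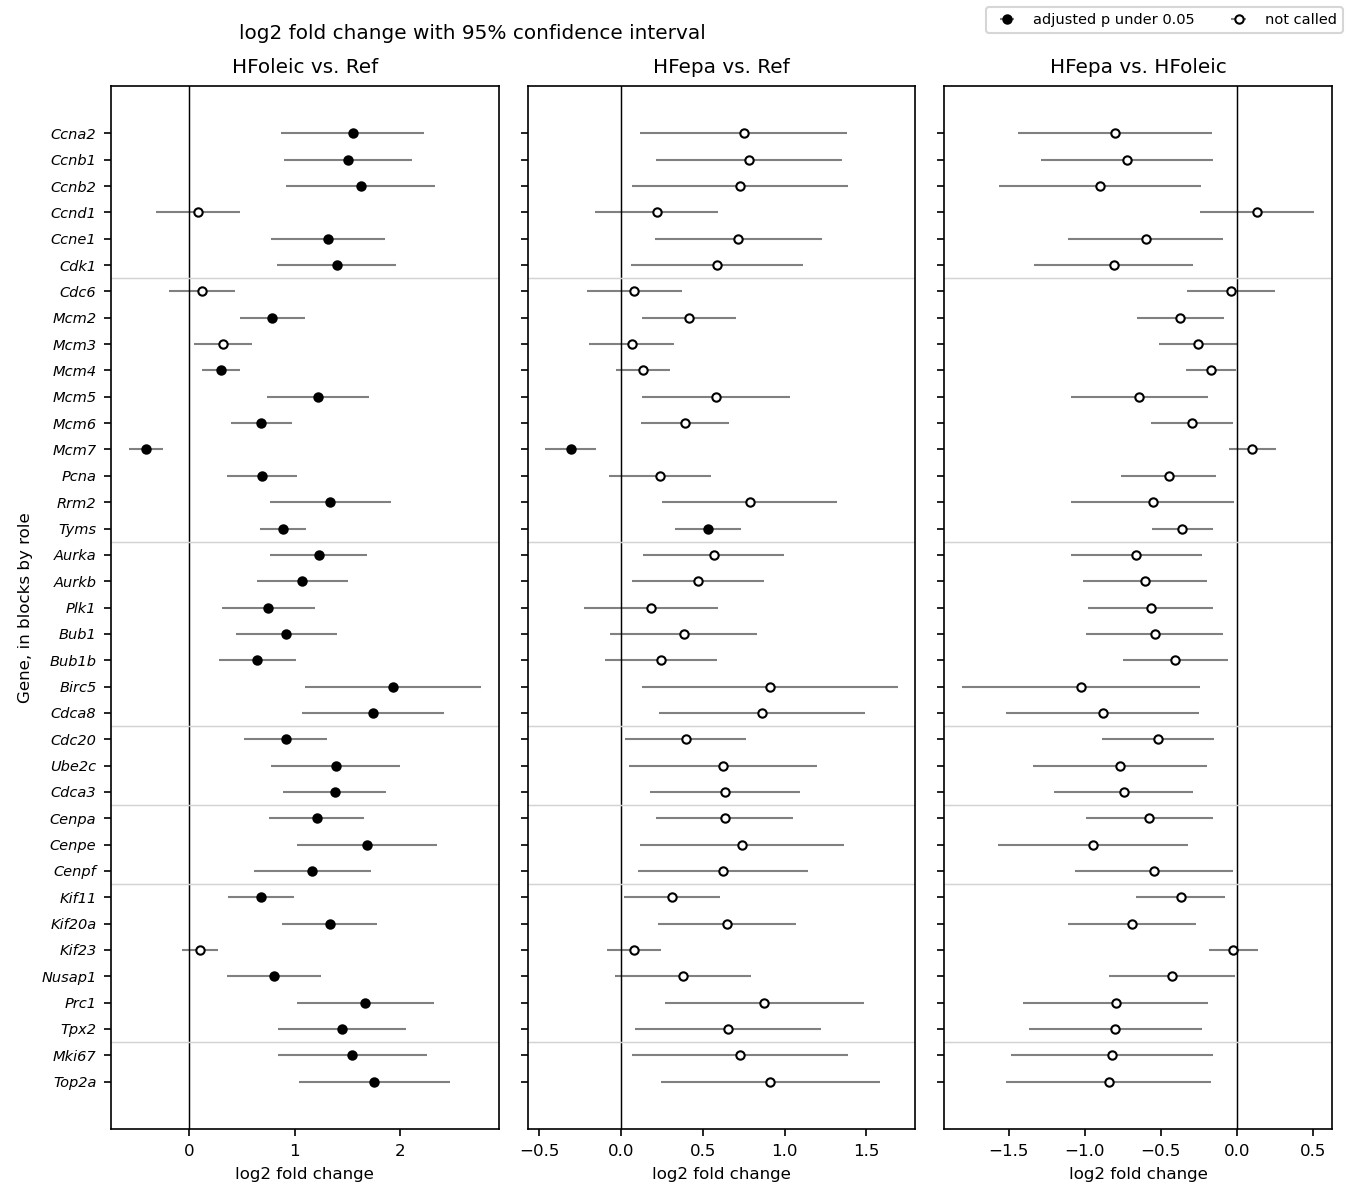
log2 fold change of the 37 tested genes (x axes) in HFoleic and in HFepa, each against Ref, and in HFepa vs. HFoleic, from left to right, with 95% confidence intervals as bars and genes in blocks by role on the y axis. Filled points are called at an adjusted p under 0.05: 33 in the first panel, Tyms and Mcm7 in the second, and none in the third.

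Cyclins and Cdk1 came first in the order of the cycle. Of the 6 tested, 5 rose in HFoleic vs. Ref. Cdk1, the kinase that triggers entry into mitosis, was read at a probe on chr10:68805423-68807832. Its log2 intensity ran from 5.67 to 7.02 in Ref (median 6.04), from 6.67 to 8.15 in HFoleic (median 7.63) and from 5.93 to 7.39 in HFepa (median 6.68). HFoleic and Ref overlapped, and the HFepa range reached into both. The rise in HFoleic was 1.40 on the log2 scale (SE 0.27, adjusted p = 0.00113), a 2.63-fold higher mean. With Agilent's processed signal, which is background-subtracted, this log2 fold change was 2.13. HFepa was 0.59 above Ref (SE 0.25, adjusted p = 0.19) and 0.81 below HFoleic (log2 fold change -0.81, SE 0.25, adjusted p = 0.127).

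At their brightest probes, the cyclins of S phase and mitosis moved by similar amounts. Ccna2, the cyclin of S phase and early mitosis, rose by 1.55 (SE 0.33, adjusted p = 0.00184) in HFoleic. Ccnb1 and Ccnb2, which encode the B-type cyclins that pair with CDK1, rose by 1.50 (SE 0.29) and 1.63 (SE 0.34). The other tested probes of Ccnb1 gave 0.34 and 0.45, both called, and each was well above background on 2 of 6 Ref arrays. Ccne1, a cyclin of the G1 to S transition, rose by 1.32 (SE 0.26, adjusted p = 0.00134), and all 6 HFoleic mice were above all 6 Ref mice.

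Ccnd1 encodes cyclin D1, which couples growth signals to the start of the cycle and is also expressed in cells that are not dividing. Its level ran from 10.36 to 11.39 in Ref (median 10.75), 10.36 to 11.31 in HFoleic (median 10.88) and 10.58 to 11.51 in HFepa (median 11.02). The ranges coincided almost entirely. HFoleic vs. Ref gave 0.08 (95% confidence interval -0.32 to 0.48, adjusted p = 0.784), an interval that lies below the change of each of the other 5 genes of this role.

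**Figure D2:**
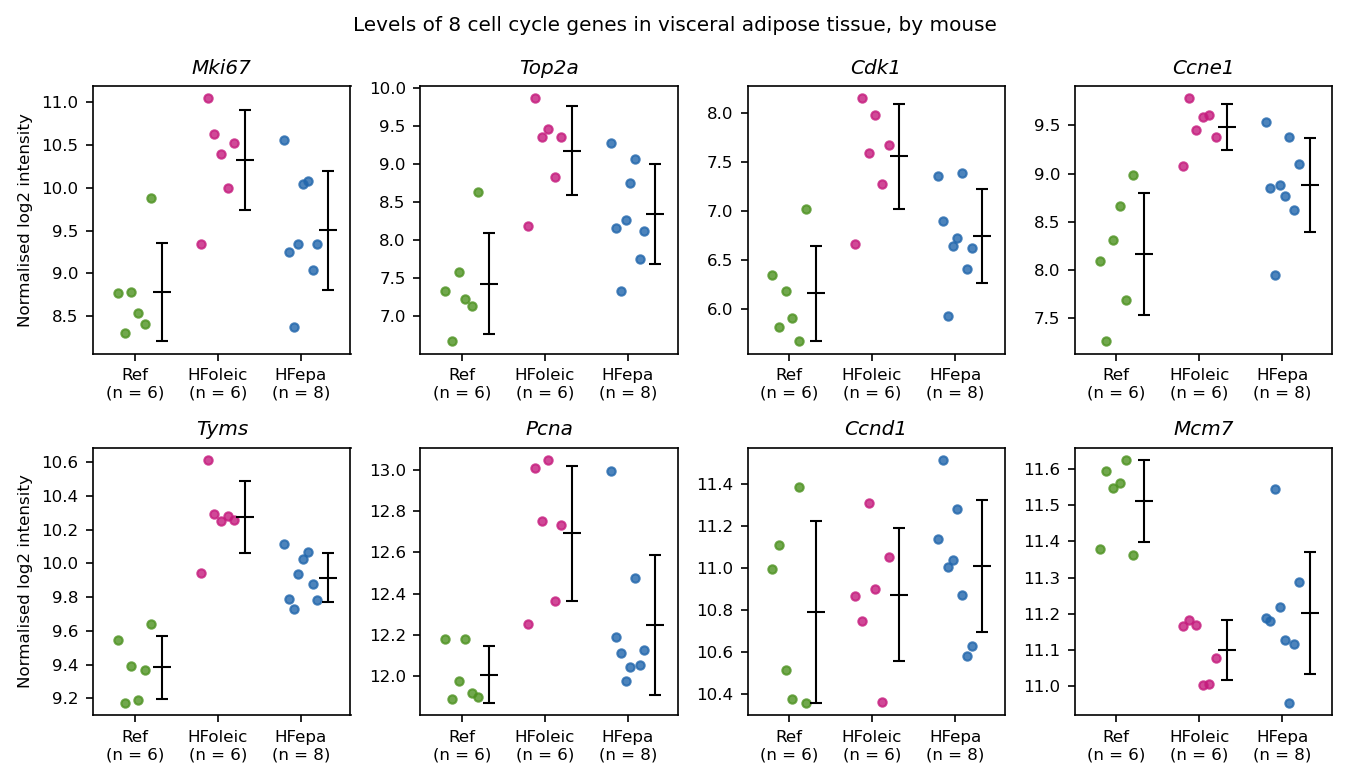
Normalised log2 intensity (y axis) of 8 genes in each mouse, by group (x axis), with the group mean and SD as a bar beside the points, over 6 mice in Ref, 6 in HFoleic and 8 in HFepa. Ref 7 is the highest Ref mouse for Mki67 at 9.88, Tyms separates Ref from both other groups, Ccnd1 overlaps in all groups and Mcm7 is lower in HFoleic.

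Replication and nucleotide supply held the only members that were called in HFepa. Tyms encodes thymidylate synthase, which makes the thymidine nucleotide for DNA. At its brightest probe, on chr5:30387605-30387664, the level ran from 9.17 to 9.64 in Ref (median 9.38), 9.94 to 10.62 in HFoleic (median 10.27) and 9.73 to 10.12 in HFepa (median 9.91). All mice on the obesogenic diet lay above all Ref mice, and HFepa overlapped HFoleic. Tyms rose by 0.89 in HFoleic (SE 0.10, adjusted p = 0.000138), the smallest p of the 37 genes, and by 0.53 in HFepa vs. Ref (SE 0.10, adjusted p = 0.0146). The HFepa rise was called in all 20 fits that leave out 1 array. A block for the replicate number ended this call (limma, adjusted p = 0.071), and the other processing settings kept it. HFepa vs. HFoleic gave -0.36 (SE 0.10, adjusted p = 0.117).

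The helicase subunits did not move alike. Mcm5 rose by 1.22 (SE 0.23), Mcm2 by 0.79 (SE 0.15), Mcm6 by 0.69 (SE 0.14) and Mcm4 by 0.30 (SE 0.08) in HFoleic, each with no overlap with Ref. Mcm3 had 0.32 (SE 0.13, adjusted p = 0.0758) at its brightest probe, while 2 of its other 3 probes were called, at 0.47 (adjusted p = 0.021) and 0.44 (adjusted p = 0.0128).

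Mcm7 ran from 11.36 to 11.63 in Ref (median 11.55), from 11.00 to 11.18 in HFoleic (median 11.12) and from 10.95 to 11.54 in HFepa (median 11.19), at a probe on chr5:138605925-138605984. Every HFoleic mouse was below every Ref mouse. Of the HFepa mice, HFepa 3 lay within the Ref range and the other 7 lay below it. The log2 fold change was -0.41 in HFoleic vs. Ref (SE 0.08, adjusted p = 0.00113), and the other tested probe of the gene, on chr5:138610447-138610506, gave -0.21 (adjusted p = 0.00846). In HFepa vs. Ref the brightest probe gave -0.31 (SE 0.07, adjusted p = 0.036), while the other probe gave -0.10 (SE 0.05, adjusted p = 0.309) and was not called. The HFepa call of Mcm7 held in 9 of 14 other processing settings and in 12 of the 20 fits without 1 array. Among the latter it was lost without Ref 3, 4, 5 or 6 and without HFepa 1, 5, 6 or 7, with an adjusted p of up to 0.0949.

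Pcna encodes the sliding clamp that holds DNA polymerase on its template. Its range was 11.89 to 12.18 in Ref (median 11.95), 12.25 to 13.05 in HFoleic (median 12.74) and 11.97 to 13.00 in HFepa (median 12.12). HFoleic did not overlap Ref, and in HFepa the highest value was that of HFepa 1. The rise in HFoleic was 0.69 (SE 0.16, adjusted p = 0.00334), and HFepa vs. Ref gave 0.24 (SE 0.15, adjusted p = 0.38). Rrm2, the regulated subunit of ribonucleotide reductase, rose by 1.34 (SE 0.27) in HFoleic. Cdc6, which helps to load the helicase, gave 0.12 (95% confidence interval -0.19 to 0.43) and was not called at its other probe either.

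All 7 genes of the mitotic kinases, the spindle checkpoint and the chromosomal passenger complex rose in HFoleic. Aurka, the kinase of centrosomes and spindle poles, had levels of 7.72 to 8.89 in Ref (median 8.26), 8.98 to 10.01 in HFoleic (median 9.48) and 8.08 to 9.61 in HFepa (median 8.76). The HFoleic mice were all above the Ref mice, and the HFepa mice spanned parts of both ranges. Its rise was 1.23 (SE 0.22, adjusted p = 0.000759), and HFepa vs. Ref gave 0.57 (SE 0.21, adjusted p = 0.128).

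Birc5 encodes survivin, a subunit of the passenger complex that also contains the kinase of Aurkb and the product of Cdca8. At its brightest probe, the rise of Birc5 in HFoleic was 1.93 (SE 0.40, adjusted p = 0.00172), a 3.82-fold higher mean. It was the largest of the 37 genes in this fit, with values of 9.69 to 11.59 against 8.33 to 10.07 in Ref. Its other tested probe gave 1.22. With the processed signal Cdk1 rose by 2.13, more than Birc5 in any processing setting (up to 2.03). Cdca8 rose by 1.74 (SE 0.32) and Aurkb by 1.07 (SE 0.21), each without overlap of the groups. The other probe of Aurkb, of the same accession NM_011496, gave 0.26 (SE 0.18, adjusted p = 0.3) and was well above background on 1 of 6 Ref arrays. Plk1, the Polo-like kinase of mitosis, rose by 0.75 (SE 0.21), and the checkpoint genes Bub1 and Bub1b rose by 0.92 (SE 0.23) and 0.65 (SE 0.18). Bub1 was well above background on only 3 of the 6 Ref arrays and on 6 of the 8 HFepa arrays, so its levels there are close to the background.

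The 3 genes of ubiquitin-driven steps of mitosis all rose as well. Cdca3, which recruits a ubiquitin ligase at the entry into mitosis, ran from 7.14 to 8.05 in Ref (median 7.41), 8.20 to 9.64 in HFoleic (median 8.84) and 7.61 to 8.97 in HFepa (median 7.98). HFoleic lay wholly above Ref, and HFepa overlapped both. Its rise was 1.38 (SE 0.23, adjusted p = 0.000573), with 0.64 in HFepa vs. Ref (SE 0.22, adjusted p = 0.111) and -0.74 in HFepa vs. HFoleic (SE 0.22, adjusted p = 0.124). Ube2c, the ubiquitin-conjugating enzyme of the anaphase-promoting complex, rose by 1.39 (SE 0.29) and Cdc20, its activator, by 0.92 (SE 0.19).

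Of the centromere proteins, 3 of 3 rose in HFoleic. Cenpa encodes the histone H3 variant that marks the centromere. It ran from 7.21 to 8.12 in Ref (median 7.56), 8.16 to 9.21 in HFoleic (median 8.89) and 7.66 to 8.92 in HFepa (median 8.16). The lowest HFoleic mouse was just above the highest Ref mouse. The rise was 1.21 (SE 0.21, adjusted p = 0.00071), and HFepa vs. Ref gave 0.63 (SE 0.20, adjusted p = 0.0889). Cenpe, the kinesin of chromosome alignment, rose by 1.68 (SE 0.32) and Cenpf by 1.17 (SE 0.27).

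Among the 6 genes of the spindle and of cytokinesis, 5 rose in HFoleic. Kif20a, a kinesin of cytokinesis, had levels of 6.69 to 7.79 in Ref (median 7.06), 7.83 to 8.91 in HFoleic (median 8.43) and 7.24 to 8.51 in HFepa (median 7.60). Its HFoleic and Ref groups did not overlap, and the rise was 1.33 (SE 0.22, adjusted p = 0.000471). HFepa was 0.65 above Ref (SE 0.20, adjusted p = 0.0843). Prc1, which bundles microtubules at the midzone, rose by 1.67 (SE 0.31), Tpx2, the activator of Aurora A, by 1.45 (SE 0.29), Nusap1 by 0.80 (SE 0.21) and Kif11, the motor that separates spindle poles, by 0.68 (SE 0.15). Kif11 was well above background on 3 of the 6 Ref arrays.

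Kif23, a kinesin of the midbody, was not called at its brightest probe but was called at its others. Its brightest probe carries the accession AK076271, and the 2 others carry the RefSeq transcript NM_024245. All 3 lie on the minus strand of chromosome 9, at chr9:61770729-61770788, chr9:61767733-61768853 and chr9:61774902-61774961, so the brightest probe lies between the others. They are shown because they give different answers on the same arrays.
Kif23, AK076271: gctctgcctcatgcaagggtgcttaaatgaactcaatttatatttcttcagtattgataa
Kif23, NM_024245, first: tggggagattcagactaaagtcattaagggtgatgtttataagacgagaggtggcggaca
Kif23, NM_024245, second: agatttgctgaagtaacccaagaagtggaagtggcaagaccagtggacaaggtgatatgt
In HFoleic vs. Ref the AK076271 probe gave 0.10 (95% confidence interval -0.07 to 0.28, adjusted p = 0.384). The first NM_024245 probe gave 0.75 (SE 0.17, adjusted p = 0.00257) and the second 0.49 (SE 0.11, adjusted p = 0.00274). The interval of the AK076271 probe excludes both values.

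Tyms showed the same division. Of its 3 tested probes on the minus strand of chromosome 5, at chr5:30387605-30387664, chr5:30388520-30388579 and chr5:30396463-30396522, those of the RefSeq transcript NM_021288 gave 0.89 and 0.81 in HFoleic vs. Ref. The probe of the Ensembl transcript ENSMUST00000154751 gave 0.10 (SE 0.10, adjusted p = 0.496).
Tyms, NM_021288, first: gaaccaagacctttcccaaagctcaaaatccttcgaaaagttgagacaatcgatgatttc
Tyms, NM_021288, second: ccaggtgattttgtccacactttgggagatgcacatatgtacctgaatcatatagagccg
Tyms, ENSMUST00000154751: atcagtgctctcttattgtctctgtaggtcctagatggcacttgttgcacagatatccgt
Of the 62 tested probes of the 37 genes, 50 were called higher in HFoleic than in Ref. The 2 called lower both belong to Mcm7, and 10 were not called. Of all 39390 tested probes, 6004 were called higher and 6143 lower. Called or not, 49 of the 62 probes were well above background on every array, and the others have less certain folds. Some probes called higher are among those others. A dim probe of Mcm6 (0.31) was well above background on 0 of 6 Ref arrays and 5 of 6 HFoleic arrays. Prc1 gave 1.67 and 1.03 at its probes of NM_145150. Its other 3 probes were dim, with 0.50 at that of XM_006540856, well above background on 1 of 6 Ref arrays, and -0.12 and -0.06, neither called, at those of 2 Ensembl transcripts. The probes did not divide by the source of the transcript throughout, since both Ensembl probes of Top2a were called higher and a probe of Aurkb with its RefSeq accession was not called. What these probes hybridise to was not tested.

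**Figure D3:**
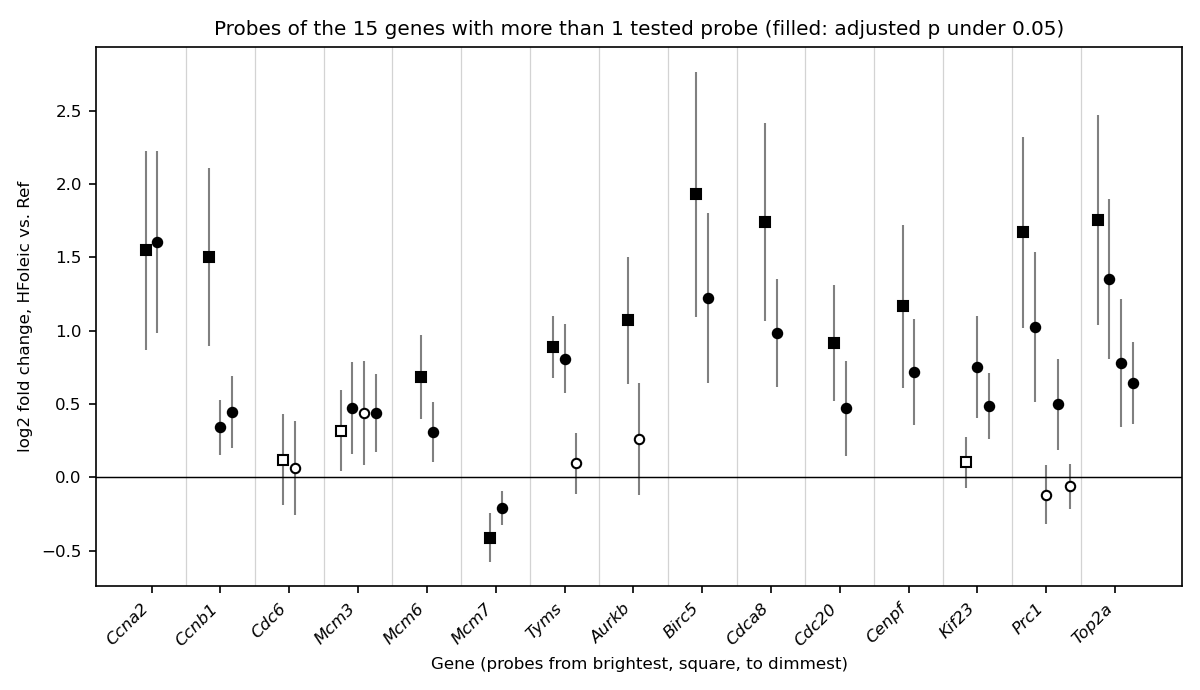
log2 fold change in HFoleic vs. Ref (y axis) of each tested probe, with 95% confidence intervals, for the 15 genes with more than 1 tested probe (x axis), ordered from the brightest probe (square) to the dimmest. Filled symbols are called: both probes of Mcm7 are below 0, while Kif23 has 1 open square near 0 and 2 filled circles above it.

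Mki67 and Top2a are the markers most often used for dividing cells, the first for a protein that coats mitotic chromosomes and the second for topoisomerase II alpha, which untangles them. Mki67, read at chr7:142881591-142881650, ran from 8.30 to 9.88 in Ref (median 8.65), 9.35 to 11.05 in HFoleic (median 10.46) and 8.37 to 10.56 in HFepa (median 9.34). Ref 7 stood apart at 9.88, the next Ref mouse being Ref 4 at 8.78, below the lowest HFoleic value. Mki67 rose by 1.55 (SE 0.34, adjusted p = 0.00238) in HFoleic, and by 1.77 when Ref 7 was left out. HFepa vs. Ref gave 0.73 (SE 0.32, adjusted p = 0.198) and HFepa vs. HFoleic -0.82 (SE 0.32, adjusted p = 0.162).

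Top2a showed the same order of groups, with 6.66 to 8.63 in Ref (median 7.28), 8.18 to 9.87 in HFoleic (median 9.36) and 7.32 to 9.29 in HFepa (median 8.21). The HFoleic range overlapped the upper end of the Ref range. The rise in HFoleic was 1.76 (SE 0.34, adjusted p = 0.00125), and all 4 tested probes of Top2a were called higher, although 1 of them was well above background on only 1 of 6 Ref arrays. HFepa vs. Ref gave 0.91 (SE 0.32, adjusted p = 0.118).

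The promoters of these genes were searched for letters known from cell cycle genes. Because the list was made of cell cycle genes, high shares of such letters cannot speak to the changes in HFoleic. The CHR element (TTTGAA) and CCAAT boxes are bound in promoters of genes of G2 and mitosis, by the MuvB complex and NF-Y, and E2F sites (searched as TTTCGCGC, TTTGGCGC and TTCCCGCC) are found in promoters of S-phase genes. RefSeq windows from 250 bases before to 50 bases after a gene's start, on build GRCm38.p6, were matched for 31 of the 38 genes, and both strands were read. The CHR letters were in 17 of the 31 (54.8%) and in 20.2% of all 27025 genes with a window. CCAAT was in 26 (83.9%), against 41.1% of all genes, and both were in 17 (54.8%), against 7.97%. The E2F letters were in 5 (16.1%), against 3.39%. Among the 13766 genes tested on the arrays that have a window, the shares were 15.8% for CHR, 42.0% for CCAAT, 6.28% for both and 5.30% for E2F. By role, CHR letters were in 1 of 9 replication genes, 2 of 4 of the cyclins and Cdk1, 4 of 6 of the mitotic kinase role, 2 of 3 of the centromere proteins, 3 of 4 of the spindle role, 3 of 3 of the ubiquitin role and 2 of 2 of chromosome structure. E2F letters were in 4 of 9 replication genes and in Cdk1. CCAAT letters were in 7 of the 9 replication genes. These are matches of letters and not evidence of binding.

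The 250 bases before the start are shown for Mki67 and Cdk1, which hold CHR and CCAAT letters (Cdk1 also TTTCGCGC), and for Mcm6, which holds E2F and CCAAT letters without CHR. Capitals mark the letters of the motifs on either strand. In Mcm6, TTTGGCGC and the reverse complement of TTTCGCGC overlap and are marked as 1 run. All 3 windows are on the minus strand, at chr7:135716380-135716629, chr10:69352913-69353162 and chr1:128359706-128359955 on GRCm38.p6.
Mki67: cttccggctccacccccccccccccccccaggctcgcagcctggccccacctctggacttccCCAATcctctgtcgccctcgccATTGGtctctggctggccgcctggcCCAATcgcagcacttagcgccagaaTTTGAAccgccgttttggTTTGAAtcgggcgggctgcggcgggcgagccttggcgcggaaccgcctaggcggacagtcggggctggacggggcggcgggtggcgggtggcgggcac
Cdk1: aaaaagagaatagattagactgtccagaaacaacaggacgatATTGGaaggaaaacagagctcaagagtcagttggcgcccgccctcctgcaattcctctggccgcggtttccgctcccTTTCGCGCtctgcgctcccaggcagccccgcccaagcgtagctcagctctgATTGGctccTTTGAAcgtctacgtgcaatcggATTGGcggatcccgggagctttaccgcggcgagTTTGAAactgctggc
Mcm6: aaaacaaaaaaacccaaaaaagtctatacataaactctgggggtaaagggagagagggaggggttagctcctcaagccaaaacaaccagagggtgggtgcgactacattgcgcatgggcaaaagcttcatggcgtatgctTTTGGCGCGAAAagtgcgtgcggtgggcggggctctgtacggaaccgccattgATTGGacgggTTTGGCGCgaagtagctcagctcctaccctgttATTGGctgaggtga
The levels of these 3 genes in HFoleic vs. Ref differed by 1.55, 1.40 and 0.69 on the log2 scale, in that order. They do not stand for the rest of the list. Genes with CHR letters ran from 0.10 for Kif23 to 1.76 for Top2a. Genes with none of the letters ran from 0.12 for Cdc6 to 1.93 for Birc5. Whether the letters go with the size of the change was not tested.

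Mice of 1 group differed from each other by a shift that most of the genes shared. For each mouse, the difference of each gene from its Ref mean was taken and the median over the 37 genes computed. This median was -0.32 to 0.63 in Ref (median -0.06), 0.53 to 1.63 in HFoleic (median 1.24) and -0.12 to 1.33 in HFepa (median 0.47). Ref 7, at 0.63, was the highest Ref mouse for 29 of the 37 genes. HFoleic 1, at 0.53, was the lowest HFoleic mouse for 32 genes, and HFoleic 4, at 1.63, was the highest for 31. HFepa 1, at 1.33, was the highest of its group for 33 genes, followed by HFepa 6 at 1.07, while HFepa 3, at -0.12, was the lowest for 25. HFoleic 4, 5, 6 and 8 exceeded every Ref mouse for 33 genes each, HFoleic 7 for 29 and HFoleic 1 for 15. Among the HFepa mice, HFepa 1 did so for 33 genes, HFepa 6 for 32 and HFepa 5 for 18, and the other 5 for 4 to 9. HFepa 5 was thus above HFoleic 1 in this count.

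**Figure D4:**
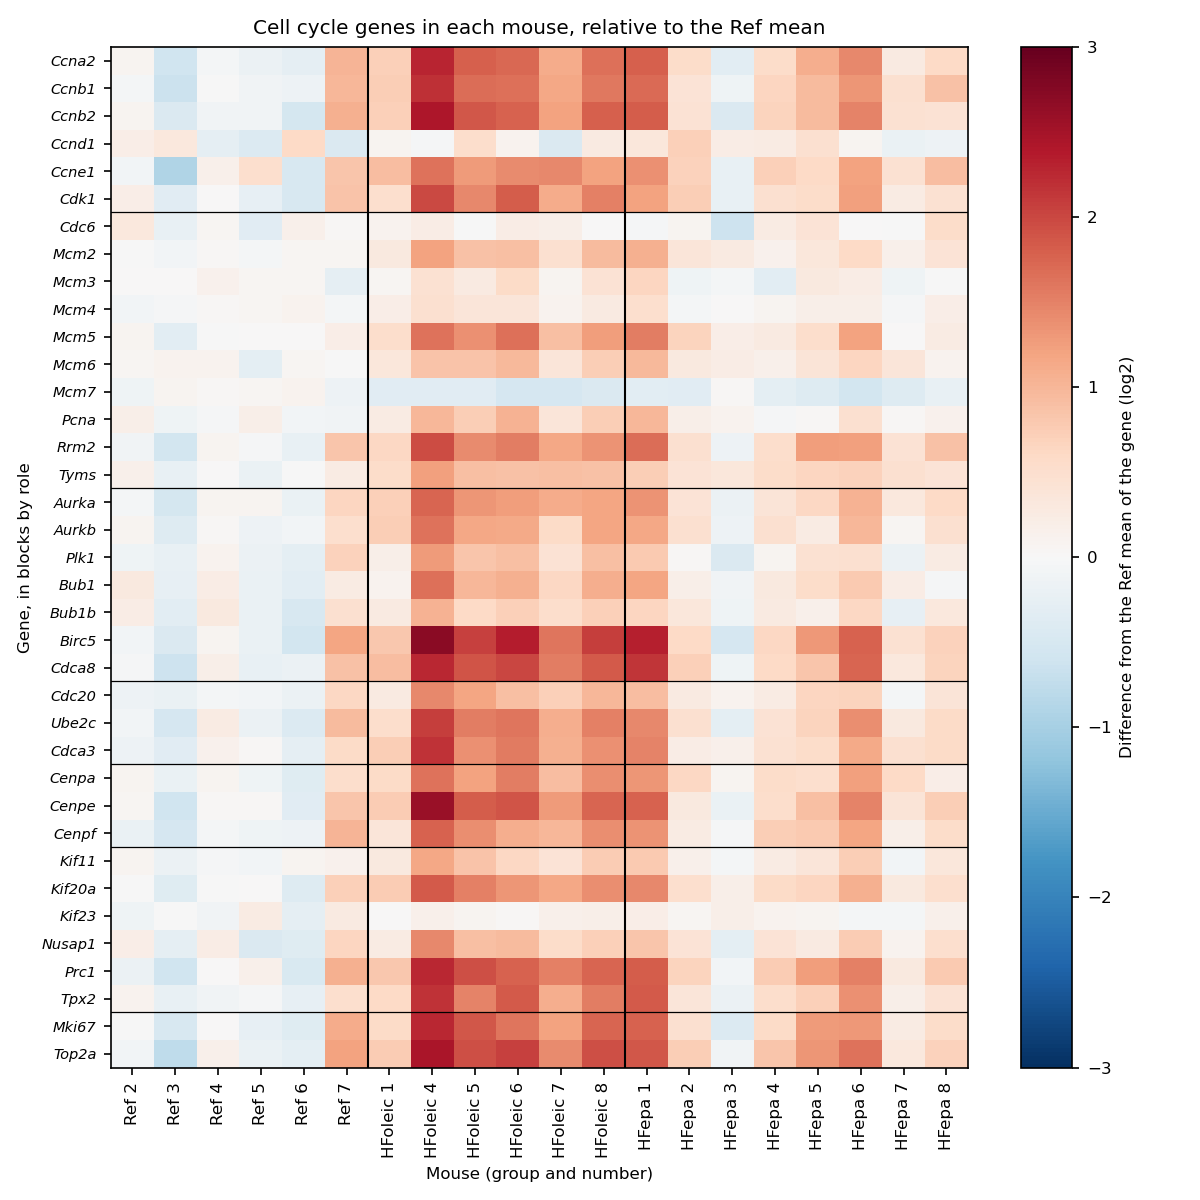
Difference of each of the 37 genes (rows, in blocks by role) from its mean in Ref, on the log2 scale from -3 (blue) to 3 (red), in each of the 20 mice (columns). Ref 7 is higher than the other Ref mice in most rows, HFepa 1 and HFepa 6 are closest in colour to the HFoleic mice, and the rows of Ccnd1, Cdc6 and Kif23 stay pale.

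The arrays were spread over 3 slides, and every slide held mice of all groups. Within the slides, the median difference of the 37 genes in HFoleic vs. Ref was 1.26, 1.42 and 1.21 on slides 1, 2 and 3. In HFepa vs. Ref it was 0.82, 0.36 and 0.14, and in HFepa vs. HFoleic it was -0.19, -1.05 and -0.95. Slide 2 held only 1 HFoleic mouse, and slide 1 held HFepa 1 and HFoleic 1.

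Markers of macrophages, which divide in the fat of obese mice, moved with these genes. Of 10 macrophage markers, 9 were tested, and 7 rose in HFoleic vs. Ref, beside 15.2% of all genes. Among them were Lyz2, the brightest of the list, which rose by 1.60, Adgre1 (2.27), Cd68 (2.41) and Csf1r (1.02). The other 2, Itgam (0.30) and Cd14 (-0.29), were not called, and Cd14 also had a lower mean in HFepa than in Ref (-0.55, adjusted p = 0.0688). All 9 were well above background on at least 6 arrays. Emr1, an older name of Adgre1, is not a gene name on the array. Their summed normalised intensity was 63575 to 96629 in Ref (median 93279), 153797 to 316514 in HFoleic (median 255836) and 70368 to 321530 in HFepa (median 112613). The highest HFepa sums were those of HFepa 1 (321530) and HFepa 6 (275180), also the mice with the highest median of the 37 genes. Of 8 genes of lipid-associated macrophages, 7 rose, among them Gpnmb by 4.89 and Trem2 by 4.22, and Lpl, the brightest and also a product of adipocytes, did not pass (0.10). Their sum was 243059 to 333840 in Ref, 373095 to 558707 in HFoleic and 270568 to 544911 in HFepa, with medians of 286136, 490049 and 337844. In Ref 7, where the cell cycle genes were high, the macrophage sum of 96629 was the highest of the Ref mice but close to that of Ref 4 (96178) and Ref 2 (95564), and its mean log2 intensity over the lipid-associated macrophage list was 11.81, below Ref 2 (11.96) and Ref 3 (11.93). Its sum of that list, in which Lpl is the brightest gene, was the highest in Ref at 333840. HFepa 5 and HFepa 8, with cell cycle medians of 0.56 and 0.46, had macrophage sums of 96583 and 70368 and mean log2 intensities over the lipid-associated macrophage list of 11.95 and 12.26, the latter above every Ref mouse. The part of macrophages in the differences was not tested.

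**Figure D5:**
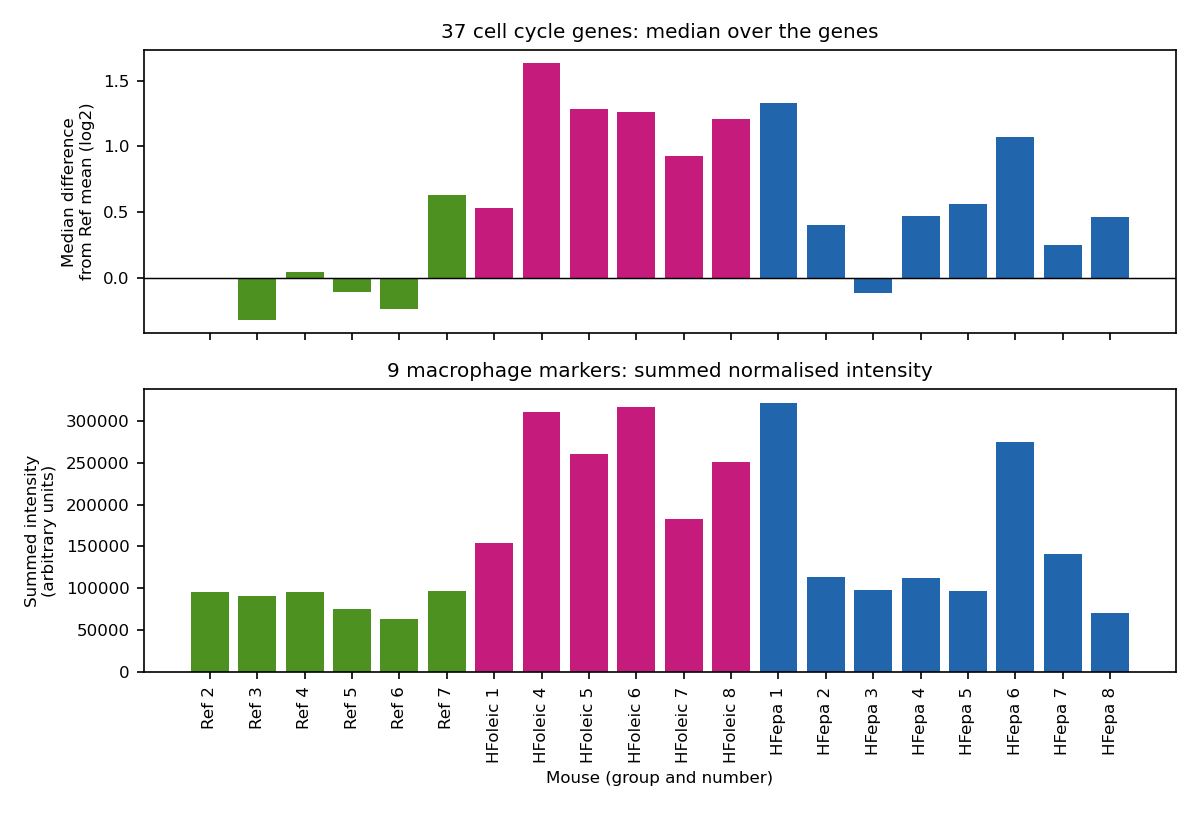
Upper panel, median over the 37 genes of the difference from the Ref mean (y axis, log2) in each mouse (x axis). Lower panel, summed normalised intensity of the 9 tested macrophage markers (y axis, arbitrary units) in the same mice, with groups in the same colours. HFepa 1 and HFepa 6 are high in both panels, and Ref 7 is the highest Ref mouse in both, by a wide margin in the upper panel and by a narrow one in the lower (96629, next 96178).

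Markers of other cells of the tissue were set beside these values. In HFoleic vs. Ref, 15.2% of all genes were called higher and 16.7% lower. All 7 adipocyte markers were tested, with Cidec the brightest, and Lipe (-1.19) and Pnpla2 (-0.42) fell in HFoleic vs. Ref. Of 8 markers of adipose progenitors and fibroblasts, Col1a1 (1.49) and Col3a1 (1.37) rose, and the other 6, with Dcn the brightest, were not called. None of 6 endothelial markers (brightest Kdr), 6 tested T cell markers (Cd3e), 5 B cell markers (Cd79b) or 5 mesothelial markers (Msln) was called. Among the 5 mast cell markers (Tpsb2), Kit fell, by 0.43 on the log2 scale. In the neutrophil list of 5 (Csf3r), S100a8 rose (2.46) and Csf3r fell (-0.24), and 4 of 5 erythroid markers fell (among them Alas2 and Hbb-b1), with Hba-a1 the brightest. Germ cells divide too, and the epididymis adjoins the sampled fat. Of 9 markers of male germ cells and testis, 7 were tested, Sycp3, the brightest, rose (0.89), Acr (-0.68) and Tnp2 (-0.25) fell, and Dazl was not well above background on any array. Of 7 epididymis markers only Adam7 was tested (not called), and Rnase9 was not well above background on any array. Single mice stood out on these lists. The log2 intensity of Adam7 was 10.59 in Ref 3, 8.62 in HFepa 2, 8.45 in Ref 6 and 7.21 in HFoleic 5, and between 4.73 and 6.05 in the other mice. The germ cell sum was 4985 in HFoleic 5, 2744 in Ref 6, 2514 in Ref 3 and 2222 in HFepa 4, and between 845 and 1882 in the others. In the median of the 37 cell cycle genes, HFoleic 5 was second in its group at 1.29, Ref 3 and Ref 6 were the lowest of theirs at -0.32 and -0.24, and HFepa 2 and HFepa 4 were at 0.40 and 0.47. The part of these cells in the differences was not tested.

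A wider list of 144 cell cycle genes outside the 38 gave 140 tested genes. In HFoleic vs. Ref, 81 of them rose and 6 fell, beside 15.2% and 16.7% of all genes, with a median log2 fold change of 0.44. In HFepa vs. Ref 3 of the 140 rose, beside 1.03% of all genes. This count was 0 when Ref 2, 3, 4, 5 or 6 was left out. Without Ref 7, 13 rose, beside 2.42% of all genes. Over all omissions of 1 array the count ranged from 0 to 18. The processed signal, no dim-probe filter, the compared groups only and the replicate block also gave 0. In HFepa vs. HFoleic none was called, with 70 lower, beside 10.0% of all genes, and 4 higher at an unadjusted p under 0.05. Without HFepa 1, 47 were called lower in HFepa vs. HFoleic, beside 4.61% of all genes, and without HFoleic 1, 23 were called lower and 1 higher, beside 1.92% and 2.43%.

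Other mitotic genes had the largest share, with 44 of 58 higher and 1 lower, beside 15.2% and 16.7% of all genes. Spc25, a subunit of the NDC80 complex at the kinetochore, had 8.05 to 9.64 in Ref and 9.76 to 12.09 in HFoleic and rose by 2.59 (SE 0.42, adjusted p = 0.000481). Ncapg, a condensin subunit, rose by 1.48 (SE 0.25) and Lmnb1, lamin B1 of the nuclear lamina, by 0.87 (SE 0.15). Spc25 separated HFoleic from Ref completely.

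Other replication genes rose in 20 of 34 cases, with 1 lower, beside 15.2% and 16.7% of all genes. Cdc7, the kinase that fires replication origins, rose by 0.99 (SE 0.15, adjusted p = 0.000431) in HFoleic and by 0.57 (SE 0.14, adjusted p = 0.0414) in HFepa vs. Ref. Uhrf1, which maintains DNA methylation on new strands, rose by 1.38 (SE 0.28) and Rfc4, a subunit of the clamp loader, by 0.40 (SE 0.08). Of these, Cdc7 was called in both diet groups. Its call in HFepa vs. Ref was lost when Ref 2, 3, 4, 5 or 6 was left out, and under several processing settings.

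Among other cyclins and CDKs, 7 of 17 rose and none fell, beside 15.2% and 16.7% of all genes. Cks2, a subunit of CDK complexes, rose by 1.29 (SE 0.22, adjusted p = 0.000517) and, in HFepa vs. Ref, by 0.79 (SE 0.20, adjusted p = 0.0446). The latter call of Cks2 was lost when Ref 2, 3, 4, 5 or 6 was left out, and under several processing settings. Ccnh, the cyclin of the CDK-activating kinase, rose by 0.43 (SE 0.07) and Ccnd2, a D-type cyclin like Ccnd1, by 0.57 (SE 0.11, adjusted p = 0.000905).

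Of 17 cell cycle transcription factors, 5 rose and 1 fell, beside 15.2% and 16.7% of all genes. E2f6, a repressor of the E2F family, rose by 0.48 (SE 0.08), Lin9, a subunit of MuvB, by 0.66 (SE 0.12) and E2f8 by 1.13 (SE 0.24). Of 14 CDK inhibitors, pocket proteins and related genes, which restrain the cycle, 5 were called higher and 3 lower, beside 15.2% and 16.7% of all genes, so that the lower calls are close to the background. Rbl1, the pocket protein p107, rose by 0.72 (SE 0.13) and also in HFepa vs. Ref, by 0.46 (SE 0.12, adjusted p = 0.0485). The HFepa call of Rbl1 was lost when Ref 2, 3, 4, 5 or 6 was left out, and under several processing settings. Cdkn2a, which encodes the inhibitor p16 and the protein ARF, rose by 0.91 (SE 0.19), and Btg1, an antiproliferative gene, fell by 0.73 on the log2 scale (SE 0.13, adjusted p = 0.000919).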

How the data were processed

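Total RNA of visceral adipose tissue was labelled with Cy3 and hybridised to Agilent SurePrint G3 mouse arrays. The authors scanned the arrays and extracted the spot intensity with Agilent Feature Extraction 10.10.1.1, per the labels, and the deposited median intensity is not background-subtracted. They also deposited a table of log2 values, filtered and quantile normalised by them, which was used as an alternative. Here, control spots were left out, spots with an outlier mark from the extraction software were set to missing, and probes well above background on fewer than 6 arrays were not tested. The log2 median signals were quantile normalised, and spots of 1 probe were averaged. One model with a mean per group was fitted to all 20 arrays (limma 3.58.1 in R 4.3.3, lmFit and eBayes), and p-values were adjusted by Benjamini–Hochberg across every tested probe. P-values set a difference between groups against the spread between mice within the groups. Litters are not given and each oil belongs to its own lineage. Mice of a lineage may therefore not be independent replicates of its supplementation. Genes to be named were all 38 by role, with values by mouse for the smallest p of each role and for Mki67, Top2a, Ccnd1, Pcna and Cdk1, and for other lists the 3 smallest p in HFoleic vs. Ref or, for markers, the brightest gene. Values of further members and markers were given after they were seen. The members, the lists and the motifs were chosen with earlier results of these data known. On simulated data, 186, 183 and 188 of 200 probes changed by log2 1 were recovered among 39366 probes, for HFoleic and HFepa against Ref and for HFepa vs. HFoleic, respectively. Plots used matplotlib 3.10.9. The number of mice limits the precision.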

Additional observations from a re-analysis of the deposited data

Results flagged for a closer look

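In each group of each of the 37 genes (111 groups), the highest and the lowest mouse were examined by Dixon's test, which flags about 1 in 20 groups by chance. It singled out 7. For 4 of them the mouse was Ref 7 above the other Ref mice, with log2 intensities of 9.88 for Mki67, 8.96 for Cdc20, 7.48 for Cenpf and 7.79 for Kif20a, against 8.78, 8.29, 6.41 and 7.08 in the next mouse. Ref 7 was also apart for Mcm3, but as the lowest Ref mouse (10.33, next 10.59). Ref 5 was low for Mcm6 (10.54, next 10.82), and HFepa 1 was high for Mcm4 (11.29, next 10.98).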

How the results depend on the processing

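The settings tried were Agilent's processed signal, normexp on the mean signal, median centring, the deposited log2 values, no dim-probe filter or one set on whole groups, outlier spots kept, array weights, robust moderation with an intensity trend, a block for the slide or for the replicate number, a fit of the compared groups only, the average over the probes of each gene, the probe with the smallest p, and each array left out in turn. In HFoleic vs. Ref the number of the 37 genes called stayed between 30 and 35, and that of the 140 other cell cycle genes between 69 and 97, against 33 and 87.
In HFepa vs. Ref, 1 in place of 2 of the 37 genes was called with the processed signal, median centring, the compared groups only and the mean of all probes, and 0 with the replicate block. Of the other genes, in place of 3, 0 were called with the processed signal, no filter, the compared groups only and the replicate block, 1 with median centring, the slide block and the mean of all probes, and 5 with array weights. Leaving out 1 array gave 1 to 11 of the 37 genes and 0 to 18 of the others, the highest without HFepa 3.
In HFepa vs. HFoleic, where 0 were called, the slide block called 5 and 11 and array weights 30 and 64. Leaving out 1 array gave 0 to 21 and 0 to 47, the highest without HFepa 1. The cause of these changes was not tested.
Apart from the omission of arrays, Tyms in HFepa vs. Ref kept its call in 13 of 14 settings, all but the replicate block, and Mcm7 in 9 of 14. Among called genes in HFoleic vs. Ref, some fold changes moved by over 1.5 times with no call lost. With the processed signal, which is background-subtracted, Kif11 was 1.44 in place of 0.68, Bub1 1.97 in place of 0.92, Aurkb 1.68 in place of 1.07 and Cdk1 2.13 in place of 1.40. Averaged over their probes, Prc1 was 0.60, Ccnb1 0.76, Aurkb 0.67 and Top2a 1.13, and Cdca8 was 0.98 at its probe with the smallest p. Small differences changed sign. Kif23 in HFepa vs. HFoleic was 0.00751 with median centring, Cdc6 there was 0.0183 with the replicate block, and Mcm3 in HFepa vs. Ref was -0.00157 with array weights. With 1 array left out, Ccnd1 in HFoleic vs. Ref ranged from -0.00419 to 0.202, Mcm3 in HFepa vs. Ref from -0.0184 to 0.119, and Cdc6 in HFepa vs. HFoleic from -0.106 to 0.0621.
The labels do not say whether mice with the same replicate number were paired, and the main fit did not pair them. The study states that HFoleic and HFepa mice were matched for body weight. The deviations of same-numbered mice correlated between -0.59 and 0.56, and not every pair exceeded 0.1. So few pairs cannot settle whether the numbers pair the mice. With the replicate block, 30 of the 37 genes were called in HFoleic vs. Ref and 0 in HFepa vs. HFoleic, with 4 to 6 shared numbers per comparison. The block ended the calls of Plk1 (adjusted p = 0.102), Bub1b (0.057) and Mcm4 (0.0752) in HFoleic vs. Ref. Signals near background limit Bub1, Kif11 and Ccne2, and further probes of Aurkb, Birc5, Ccnb1, Cdca8, Mcm6, Prc1 and Top2a, which enter the averages over probes.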
